A study of Mus musculus with 6 samples.

Results

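Glycolysis and the handling of its end products, lactate and pyruvate, were followed through 35 genes that were chosen by their known function. The rule itself uses no measured value, but the genes were chosen with earlier results of these data known. All 35 genes were found by symbol among the 19401 genes listed in at least 1 library, and each had a level above 0 in each of the 6 libraries. They fell into 4 steps: 6 genes of glucose and lactate transport, 19 genes of glycolysis including lactate dehydrogenase, 3 genes of the PFKFB enzymes that set the level of fructose 2,6-bisphosphate, and 7 genes of pyruvate entry into mitochondria. RNA was sequenced from 3 control and 3 efavirenz (EFV) treated libraries of 5XFAD mice, a model of Alzheimer's disease that is hemizygous for mutant human amyloid precursor protein and mutant human presenilin 1 on a B6SJL background. All mice were 9 months old males, and both groups carried the transgenes, so no wild-type retina entered the comparison. EFV, an anti-HIV drug, was given in drinking water from 3 to 9 months of age at 0.08 mg/kg body weight per the labels, with a somewhat higher daily dose stated in the study's text, and control mice received the vehicle, Tween 80 in water. Each library pooled 1 retina with its retinal pigment epithelium (RPE) from each of 5 to 6 mice, so the spread between libraries is that between pools. The question was which of these genes differed in RNA level after EFV treatment.

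Glycolysis splits glucose into pyruvate and yields ATP without oxygen. Photoreceptors of the mammalian retina are known for turning most of the glucose they take up into lactate even when oxygen is plentiful, and for passing lactate to Muller glia and the RPE, while glucose reaches them through the RPE. The flux is controlled at hexokinase, phosphofructokinase and pyruvate kinase. The PFKFB enzymes make and break fructose 2,6-bisphosphate, the strongest activator of phosphofructokinase, and the pyruvate dehydrogenase complex with its kinases decides how much pyruvate is oxidized.

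The 6 libraries held 23455167 to 24590278 rounded expected counts each. Chi-square per degree of freedom between pairs of libraries ranged from 5.40 to 13.3, so no library was a copy of another, and each pair with control 3 was at 11.0 or more. Control 3 stood apart in lens RNA: the summed level of 10 lens markers was 3415 FPKM (fragments per length of transcript and per depth of the library) in it and 28.5 to 159 FPKM in the other 5 libraries. All 9 lens markers tested passed the limits given below as lower in EFV, although their groups overlapped and only control 3 was high. Retinal identity was plain, with summed rod markers at 27227 to 28110 FPKM in controls and 25973 to 27499 FPKM in EFV libraries. Of 10 RPE markers, 9 were higher in the EFV libraries and 2 of them (Rpe65 and Lrat) passed the limits given below, with a summed level of 239 to 291 FPKM in controls and 275 to 289 FPKM after EFV. Most of this sum was Rlbp1, at 208 to 232 FPKM, the only RPE marker that was not higher. The median log2 fold change of the 10 markers was 0.41. Summed skeletal muscle markers were at 3.86 to 4.58 FPKM in controls and at 4.84 to 5.33 FPKM in EFV libraries, and summed red blood cell markers were at 131 to 264 and 114 to 289 FPKM, respectively. No lens, RPE, rod, cone, Muller glia, endothelium, microglia or red blood cell marker was at 0 in any library, and 1 muscle marker was at 0 in control 2. The part of these differences in the results below was not tested, apart from the fits with a lens, RPE or rod covariate, and fewer cells of a type cannot be told apart from less RNA per cell in such pools.

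The enzymes of glycolysis were among the most abundant RNAs of the retina. Of the 35 genes, 16 had a mean of 100 FPKM or more and 9 were among the 100 most abundant genes, against a median of 4.42 FPKM over all genes listed. Aldoa, the aldolase that cleaves fructose 1,6-bisphosphate, was the most abundant with a mean of 2146 FPKM over the 6 libraries. Bsg, the chaperone that brings the lactate transporters to the cell surface, led the transport step with 499 FPKM. Pfkfb2 with 61.3 FPKM and Pdhb, the beta subunit of the first enzyme of the pyruvate dehydrogenase complex, with 63.1 FPKM led the other steps. At the low end, Slc16a7, a high-affinity monocarboxylate transporter, had 1.17 to 1.34 FPKM and Pgam2, the muscle phosphoglycerate mutase, had 1.25 to 2.78 FPKM. The 35 genes together took 2.14 to 2.195% of all counts in the control libraries and 1.98 to 2.19% in the EFV libraries, and the ranges overlapped.

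**Figure D1:**
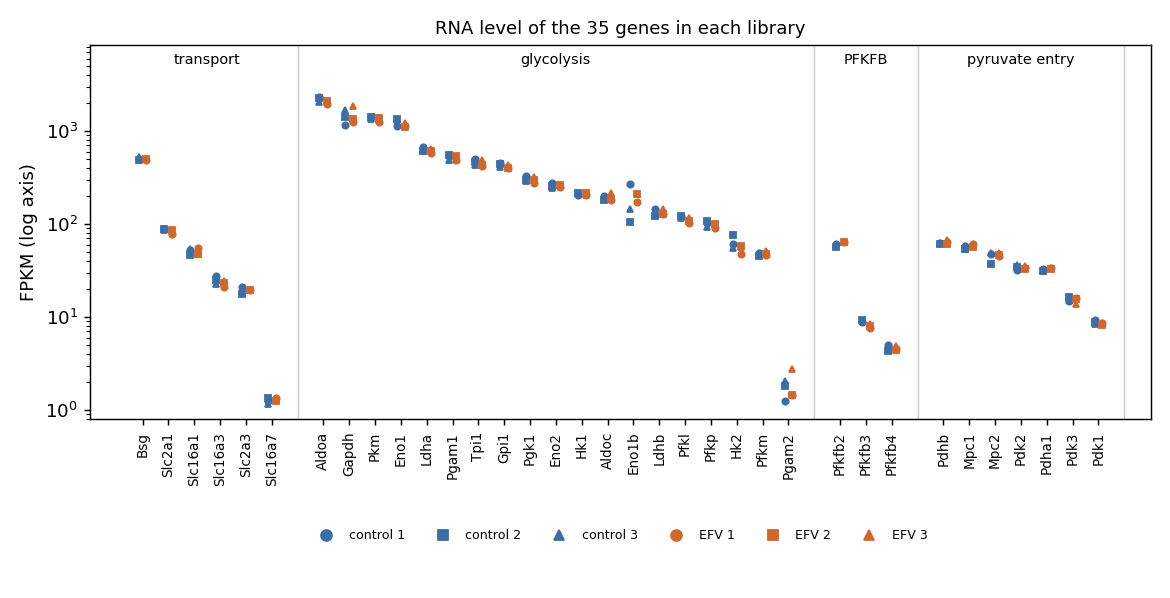
FPKM (log axis) of each of the 35 genes in each library, ordered by mean level within the 4 steps; blue symbols are the 3 control and orange symbols the 3 EFV libraries. Levels spanned from about 1 FPKM (Slc16a7) to over 2000 FPKM (Aldoa), and the symbols of both groups lay close together for most genes.

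Most of these genes varied little between pools. The median coefficient of variation over the 6 libraries was 6.05% for the 35 genes and 7.06% for all genes tested. Only 4 exceeded 15%: Eno1b (31.1%), Pgam2 (31.1%), Gapdh (17.8%) and Hk2 (16.3%). Bsg varied least, at 2.44%.

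After EFV treatment, 4 of the 35 genes were lower past the limits and none was higher: Pfkl, Aldoa and Eno1 of glycolysis and the regulator Pfkfb3. All 4 are also in the study's own list of changed genes, which was drawn from these same libraries and is not independent evidence of their direction. The limits were those of the study, an unadjusted p of 0.05 with the higher group at least 7% above the lower, but with the p from edgeR's quasi-likelihood test in place of a Poisson model. Across all 15537 genes tested, 1.54% were lower and 1.47% higher past the same limits. Because the 35 genes were chosen with earlier results known, an excess over these shares is not an unbiased one. With Benjamini-Hochberg adjustment over all genes, no gene passed an adjusted p of 0.05 (0% of genes), while 472 genes had an unadjusted p of 0.05 or less. The smallest adjusted p among the 35 genes was 0.999, so the 4 genes are given by size and spread. DESeq2 gave 11 genes with an adjusted p of 0.05 or less, of which none was among the 35. The count of 4 rested on single libraries: it was 1 without control 2, 1 without EFV 1 and 2 without control 1. With total counts as the only scaling, 2 of the 35 genes were lower and 1 was higher past the limits, and over all genes the split moved from 239 lower and 228 higher to 159 lower and 288 higher.

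By direction alone, 24 of the 35 genes had a log2 fold change below 0, against 49.5% of all genes tested. The median log2 fold change was -0.04 over the 35 genes and 0.00 over all genes. The median absolute change was 0.06 for both on the log2 scale. The groups did not overlap on the log2 CPM (counts scaled to the depth of the library) scale for 3 genes that were lower (Slc2a1, Pfkl and Pfkfb3) and for 1 that was higher (Pfkfb2), while 4.18% of all genes were lower and 3.95% higher in this way. The 35 genes are not independent measurements and were chosen with earlier results known, and no test was made over them as a set.

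**Figure D2:**
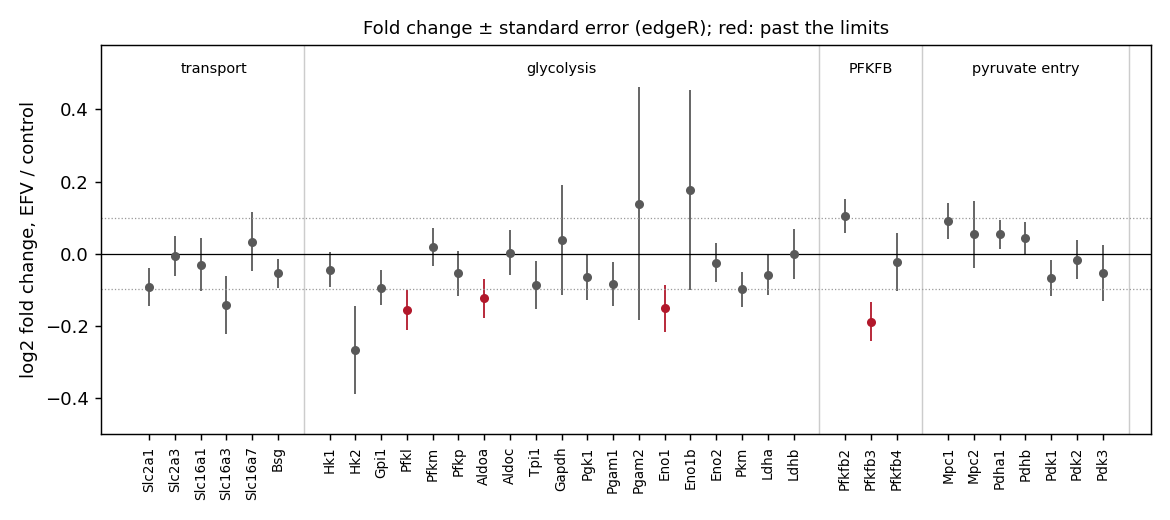
Log2 fold change of EFV over control with its standard error from edgeR for each of the 35 genes by step; dotted lines mark a change of 7% over the lower group in either direction, and red marks the genes past the limits. Pfkl, Aldoa, Eno1 and Pfkfb3 are red and below 0, and the genes of pyruvate entry lie between -0.07 and 0.09.

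In the transport step, none of the 6 genes passed the limits, and log2 fold changes ranged from -0.14 to 0.03 with 5 of 6 below 0. Slc2a1 encodes GLUT1, the glucose transporter through which glucose crosses the RPE and the retinal endothelium. Its levels were 87.4, 87.5 and 86.4 FPKM in the control libraries and 77.5, 85.5 and 84.9 FPKM in the EFV libraries. All 3 EFV libraries lay below all 3 controls, with EFV 1 lowest by a wide margin (log2 fold change -0.09, SE 0.05, unadjusted p = 0.112 by edgeR). Bsg was at 501, 490 and 521 FPKM in controls and at 486, 499.9 and 496 FPKM after EFV, and the groups overlapped. Slc16a3, the transporter MCT4 that exports lactate, had the largest change of the step (-0.14, SE 0.08, unadjusted p = 0.107 by edgeR). Its control levels were 27.5, 25.2 and 22.6 FPKM, and its EFV levels of 20.9, 23.3 and 24.6 FPKM overlapped with them. Slc2a3 (GLUT3, the neuronal glucose transporter), Slc16a1 (MCT1) and Slc16a7 (MCT2) had log2 fold changes of -0.01, -0.03 and 0.03.

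Glycolysis proper held 3 of the 4 genes past the limits, and 14 of its 19 genes had a fold change below 0. Pfkl encodes the liver-type subunit of phosphofructokinase, which commits sugar phosphate to glycolysis, and lies at chr10:77986947-78009807 (GRCm38). It was at 123, 121 and 116 FPKM in controls and at 102, 108 and 116 FPKM in EFV libraries, where only EFV 3 reached the range of the controls. The mean went from 119.9 ± 3.95 to 109 ± 7.31 FPKM (SD, n = 3 each), a log2 fold change of -0.16 (SE 0.06, unadjusted p = 0.0218, adjusted p = 0.999, edgeR). Without control 1, control 2 or EFV 1 the unadjusted p was 0.0641, 0.0599 and 0.0857 in the same edgeR fit. The other phosphofructokinase subunits, Pfkm (0.02) and Pfkp (-0.05), had smaller log2 fold changes.

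Aldoa (chr7:126795234-126800994) was at 2329, 2283 and 2063 FPKM in the control libraries and at 1951, 2126 and 2122 FPKM in the EFV libraries. Control 3, the library with lens RNA, lay within the EFV range, and the other two controls lay above it. The log2 fold change was -0.12 (SE 0.05, unadjusted p = 0.0488, adjusted p = 0.999, edgeR), and without control 1, control 2 or EFV 1 the unadjusted p was 0.163, 0.147 and 0.196 by edgeR. It was 0.0597 without EFV 3. Without control 3 the log2 fold change was -0.18, and with the lens markers as a covariate it was also -0.18. With the RPE markers as a covariate its unadjusted p was 0.183 by edgeR. Aldoc, the aldolase of glia and neurons, had a log2 fold change of 0.00.

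Enolase makes phosphoenolpyruvate, and its main form is alpha-enolase, Eno1 (chr4:150236708-150248879). Eno1 was at 1138, 1340 and 1317 FPKM in controls and at 1144, 1108 and 1206 FPKM in EFV libraries, so control 1 lay within the EFV range. Its log2 fold change was -0.15 (SE 0.06, unadjusted p = 0.0436, adjusted p = 0.999, edgeR), and without control 2, control 3, EFV 1 or EFV 2 the unadjusted p was 0.158, 0.143, 0.103 and 0.117 by edgeR. With the lens or the RPE markers as a covariate it was 0.153 and 0.265 by edgeR. Eno1b is a near-identical gene. Of the 50-base windows of the Eno1 transcripts in GENCODE M21, 48.4% also occurred in Eno1b, and 76.4% of those of Eno1b occurred in Eno1, so that the split of reads between them was an estimate of the counter. Eno1b was at 269, 105 and 145 FPKM in controls and at 172, 208 and 212 FPKM in EFV libraries, and was 7.24 to 19.1% of the pair. Control 1 held the highest Eno1b and the lowest Eno1 of the controls.

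The sum of both genes varied less than either, with a coefficient of variation of 4.55%. It was 1407, 1445 and 1462 FPKM in controls and 1315, 1316 and 1418 FPKM in EFV libraries, and EFV 3 alone reached the control range. The mean went from 1438 ± 27.9 to 1350 ± 59.0 FPKM (SD, n = 3 each), with a log2 fold change of -0.11 (SE 0.04, unadjusted p = 0.0209, adjusted p = 0.999, edgeR). It stayed past the limits without control 1 or EFV 3 but not without any of the other 4 libraries, where the log2 fold change was between -0.10 and -0.09. Eno2, the neuronal enolase, had a log2 fold change of -0.02.

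**Figure D3:**
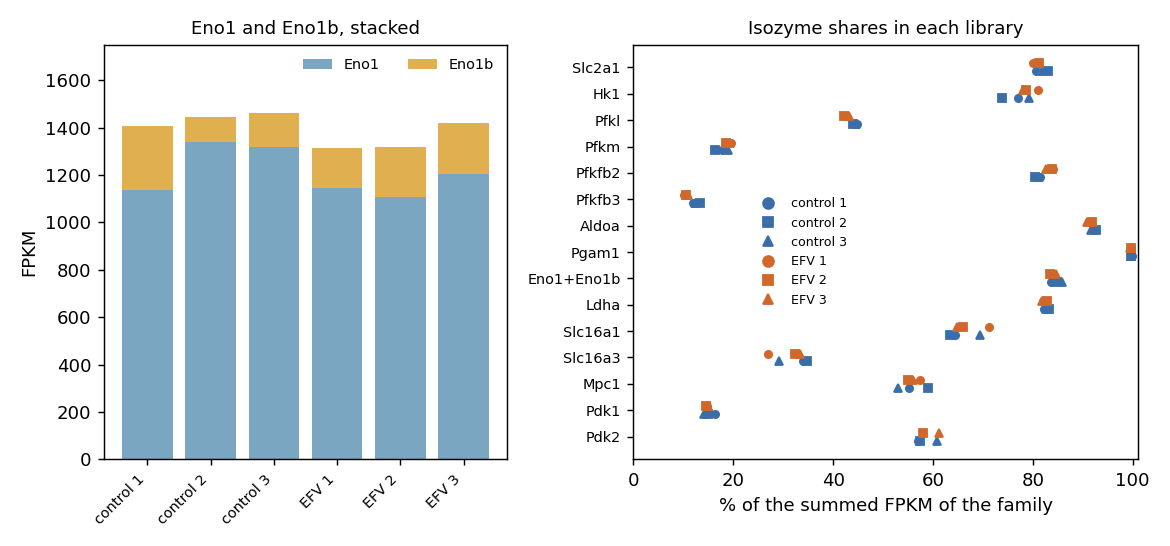
Left, FPKM of Eno1 (blue) and Eno1b (yellow) stacked for each library, where the sums of 1315 to 1462 FPKM vary less than the part given to Eno1b. Right, the share of each isozyme in the summed FPKM of its family, with control libraries in blue and EFV libraries in orange; the groups are apart for Pfkl, Pfkfb2 and Pfkfb3.

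The other genes of glycolysis did not pass the limits. Hk2, the hexokinase of photoreceptors, had the largest negative estimate among the 35 genes (log2 fold change -0.27, SE 0.12, unadjusted p = 0.0574, edgeR). Its levels were 61.0, 77.1 and 55.9 FPKM in controls and 47.7, 58.2 and 57.3 FPKM in EFV libraries, with control 2 high and EFV 1 low. The log2 fold change was -0.11 without control 2 and -0.10 with the RPE markers as a covariate. Hk1, the more abundant hexokinase, had a log2 fold change of -0.04. Pkm, pyruvate kinase, was at 1403, 1430 and 1360 FPKM in controls and at 1246, 1393 and 1320 FPKM after EFV (-0.10, SE 0.05, unadjusted p = 0.0693, edgeR), and Gpi1, glucose phosphate isomerase, had -0.09 (SE 0.05, unadjusted p = 0.0815, edgeR). Tpi1, Pgk1 and Pgam1, which act between aldolase and enolase, had log2 fold changes of -0.09, -0.06 and -0.08.

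Gapdh, the dehydrogenase of the pathway and a common reference gene, spread widely within both groups. It was at 1165, 1428 and 1688 FPKM in controls and at 1262, 1359 and 1843 FPKM in EFV libraries, and its log2 fold change of 0.04 had an SE of 0.15. Pgam2 had 26, 36 and 42 counts in controls and 30, 30 and 57 in EFV libraries, too few to resolve its log2 fold change of 0.14 (SE 0.32). Lactate dehydrogenase, which interconverts pyruvate and lactate, was mostly Ldha. Ldha was at 677, 609 and 609 FPKM in controls and at 578, 618 and 644 FPKM after EFV (-0.06), and Ldhb had a log2 fold change near 0.

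**Figure D4:**
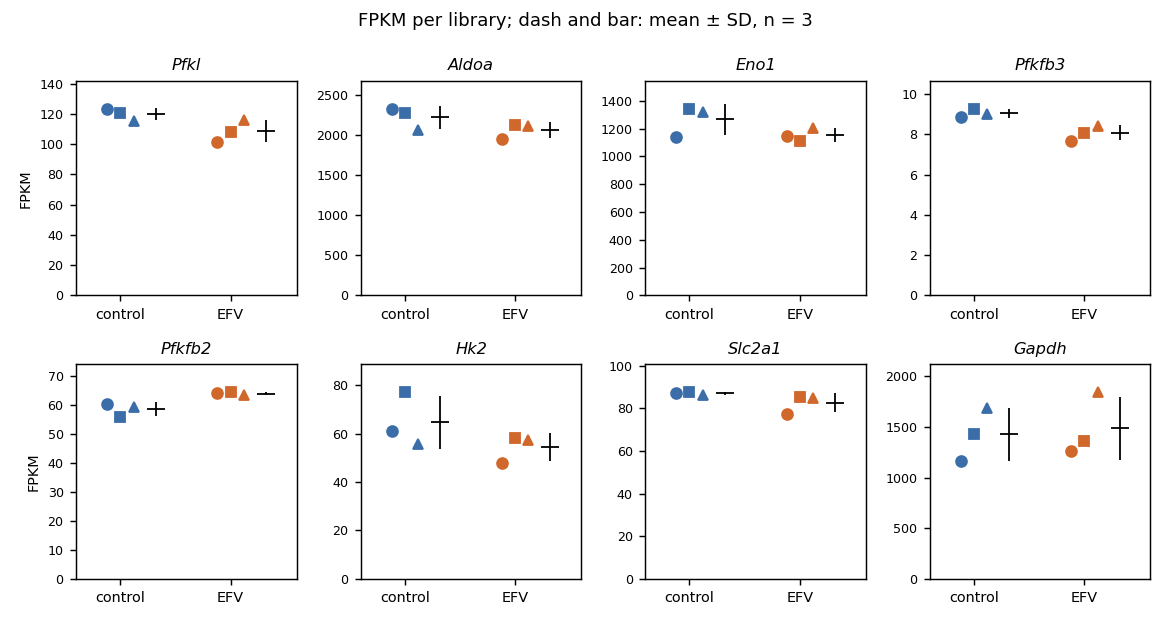
FPKM in each library (circle, square and triangle are replicates 1, 2 and 3) with the mean ± SD (n = 3) for the genes past the limits and for Pfkfb2, Hk2, Slc2a1 and Gapdh; all axes start at 0. The groups do not overlap for Pfkfb3, Pfkfb2 and Slc2a1, and Gapdh spreads more within the groups than their means differ.

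Summed over the 19 genes, glycolysis was at 9972, 10100 and 9904 FPKM in controls and at 8997, 9591 and 10226 FPKM in EFV libraries. EFV 1 was the lowest and EFV 3 the highest of all, so the groups overlapped. The top rank of EFV 3 rests on Gapdh, at 1843 FPKM in that library and 1165 to 1688 FPKM in controls. EFV 1 held the lowest level of 10 of the 19 genes, and control 1 held the highest level of 9. EFV 3, with the highest sum, and EFV 1, with the lowest, had the lowest summed rod markers of the 6 libraries (25973 and 26669 FPKM). A relation between these sums was not tested.

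Of the 3 PFKFB enzymes in the chosen set, Pfkfb3 was lower past the limits and Pfkfb2 had a higher estimate that did not pass them. Both had groups that did not overlap. Pfkfb3 encodes the isozyme with the strongest kinase over phosphatase activity, known for raising glycolysis in endothelium and under low oxygen. Its levels were 8.83, 9.25 and 9.01 FPKM in controls and 7.68, 8.08 and 8.43 FPKM in EFV libraries, from 928 to 1101 counts per library, and all EFV libraries lay below all controls. The mean went from 9.03 ± 0.211 to 8.06 ± 0.375 FPKM (SD, n = 3 each), a log2 fold change of -0.19 (SE 0.05, unadjusted p = 0.00700, adjusted p = 0.999, edgeR). Among the 4 genes it alone stayed past the limits under all 19 alternatives, the fits without each library in turn included. 

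Pfkfb2, the main isozyme in this tissue, was at 60.5, 56.0 and 59.3 FPKM in controls and at 64.0, 64.3 and 63.4 FPKM in EFV libraries. All EFV libraries lay above all controls, and the 3 EFV values were close together (63.9 ± 0.452 against 58.6 ± 2.34 FPKM, SD, n = 3 each). The log2 fold change was 0.11 (SE 0.05, unadjusted p = 0.0524, adjusted p = 0.999, edgeR), just outside the limits, and 10 of the 19 alternatives placed it past them. Pfkfb4, the least abundant of these 3 enzymes, had a log2 fold change of -0.02 and overlapping groups. The sum of the 3 enzymes followed Pfkfb2, with 69.5 to 74.3 FPKM in controls and 76.3 to 76.8 FPKM in EFV libraries. A further isozyme, Pfkfb1, was not in the chosen set and is not in this sum. It was lower still, at 0.68 to 1.09 FPKM in controls and 0.70 to 0.97 FPKM in EFV libraries (log2 fold change -0.18, SE 0.26).

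The share of each isozyme in the summed FPKM of its family was compared next. A family here holds only members of the chosen set of genes, so Pfkfb1 and other isozymes outside it are left out. Of 15 shares compared, 3 had groups that did not overlap. For a share with no difference, groups of 3 and 3 libraries are apart with a probability of 0.1. The count of 3 was therefore not read as an excess. Pfkl was 44.5 ± 0.433% of the phosphofructokinase FPKM in controls and 42.7 ± 0.542% after EFV (SD, n = 3 each). Pfkfb2 was 81.1 ± 0.479% of the PFKFB sum in controls and 83.4 ± 0.736% after EFV, while Pfkfb3 was 12.5 ± 0.725% and 10.5 ± 0.453%. Each had a two-sided p of 0.1 in an exact permutation test (Benjamini-Hochberg adjusted p = 0.5), the smallest that 3 against 3 libraries allow. Shares of a family sum to 100%, so Pfkfb2 and Pfkfb3 are not separate measurements here. The shares of the other families overlapped, including Hk1 (76.7% and 79.2% of the hexokinases), Aldoa (92.0% and 91.4%) and Ldha (82.7% and 82.2%).

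Promoters of Pfkfb3 and Pfkfb2 are shown, with that of Ldha for its several matches and that of Pfkl for having none. The letters searched for were ACGTG, a form of the hypoxia response element core bound by HIF, which also lies within the E-box CACGTG. The other form of the core, GCGTG, was not searched for, so the matches do not cover all such cores. Each run gives the 250 bases before a RefSeq transcript start (GRCm38.p6), read 5′ to 3′ along the gene, with ACGTG on either strand in capitals. Pfkfb3 had a match in both of its listed promoters, at chr2:11502091-11502340 and chr2:11553930-11554179, Pfkfb2 in 2 of its 3 listed promoters, of which that at chr1:130715822-130716071 is shown (all on the minus strand), and Ldha in 1 of its 2, at chr7:46845554-46845803 on the plus strand. Pfkl, at chr10:78009808-78010057 on the minus strand, had no ACGTG in its window, though the run shown for it holds GCGTG.
Pfkfb3, first promoter: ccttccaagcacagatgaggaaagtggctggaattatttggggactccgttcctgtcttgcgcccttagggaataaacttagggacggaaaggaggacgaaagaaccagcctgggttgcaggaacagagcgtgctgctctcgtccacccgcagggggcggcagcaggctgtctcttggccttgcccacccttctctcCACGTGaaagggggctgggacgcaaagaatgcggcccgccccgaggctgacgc
Pfkfb3, second promoter: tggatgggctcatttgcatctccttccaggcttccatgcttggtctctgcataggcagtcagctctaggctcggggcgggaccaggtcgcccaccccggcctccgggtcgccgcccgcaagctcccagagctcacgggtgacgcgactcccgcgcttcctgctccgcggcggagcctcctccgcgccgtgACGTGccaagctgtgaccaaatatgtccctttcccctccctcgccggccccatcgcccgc
Pfkfb2: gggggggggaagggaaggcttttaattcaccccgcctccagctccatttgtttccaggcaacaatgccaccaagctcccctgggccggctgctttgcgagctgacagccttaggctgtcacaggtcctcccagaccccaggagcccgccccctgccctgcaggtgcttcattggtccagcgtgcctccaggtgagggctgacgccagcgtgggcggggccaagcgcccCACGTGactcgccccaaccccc
Ldha: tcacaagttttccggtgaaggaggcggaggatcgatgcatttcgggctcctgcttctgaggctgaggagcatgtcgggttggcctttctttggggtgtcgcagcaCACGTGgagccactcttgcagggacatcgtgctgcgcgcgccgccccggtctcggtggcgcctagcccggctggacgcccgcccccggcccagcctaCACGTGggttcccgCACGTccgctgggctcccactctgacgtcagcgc
Pfkl: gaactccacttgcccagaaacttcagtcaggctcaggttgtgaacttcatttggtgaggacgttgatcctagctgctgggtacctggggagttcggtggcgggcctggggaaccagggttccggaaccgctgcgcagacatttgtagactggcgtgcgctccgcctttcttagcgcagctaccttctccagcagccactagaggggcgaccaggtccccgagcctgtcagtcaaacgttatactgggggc
In windows from 250 bases before to 50 after the start, ACGTG on either strand was found in 22 of 48 promoters of these genes (45.8%) and in 19.6% of all 32851 promoters. By gene, 18 of 31 with a listed promoter had a match, against 21.8% of all genes. Listed promoters of a gene can overlap and then count the same site again, as for Aldoa at chr7:126799179-126799428 and chr7:126799255-126799504. A gene with more listed promoters also has more chances of a match. These 31 genes had 48 promoters, and all 27025 genes had 32851. CACGTG was found in 6 of the 48 (12.5%) and in 7.15% of all. The promoters of these genes were richer in GC (median 61.7% against 52.7%), and of all promoters at or above their median GC, 26.6% held ACGTG. Among the genes lower past the limits, Pfkfb3 and Aldoa had a match in a listed promoter, and Pfkl and Eno1 had none. Pfkfb2, higher without passing the limits, and Ldha, at a log2 fold change of -0.06, also had matches. Whether matches go with a direction of change was not tested.

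In the pyruvate entry step, none of the 7 genes passed the limits, 4 had a fold change above 0, and log2 fold changes ranged from -0.07 to 0.09. The 4 genes were both subunits of the mitochondrial pyruvate carrier and both subunits of the first enzyme of pyruvate dehydrogenase. Mpc1 was at 58.2, 53.3 and 54.3 FPKM in controls and at 60.4, 57.1 and 61.3 FPKM in EFV libraries (log2 fold change 0.09, SE 0.05, unadjusted p = 0.101, edgeR). Pdha1 was at 33.2, 31.1 and 31.1 FPKM in controls and at 33.6, 33.3 and 33.3 FPKM after EFV, without overlap by FPKM but with overlap by log2 CPM. Pdhb was at 62.3, 60.7 and 62.3 FPKM in controls and at 64.6, 60.6 and 68.0 FPKM in EFV libraries, where the groups overlapped. Mpc2 had a log2 fold change of 0.05, which turned to -0.12 with the RPE markers as a covariate. The kinases that switch the complex off, Pdk1, Pdk2 and Pdk3, had log2 fold changes of -0.07, -0.02 and -0.05.

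Other genes of the same pathways were read from lists of 58 genes, of which 48 were tested. Only 1 passed the limits, Pgm2 as the files name the phosphoglucomutase with gene ID 72157, an enzyme that links glucose 1-phosphate to glycolysis. It was at 41.5, 41.0 and 39.5 FPKM in controls and at 36.7, 37.3 and 39.3 FPKM in EFV libraries (log2 fold change -0.12, SE 0.04, unadjusted p = 0.0171, adjusted p = 0.999, edgeR), and all EFV libraries lay below all controls. Of the 16 other glycolysis and fructose genes tested, 9 had a fold change below 0, including Bpgm, which makes 2,3-bisphosphoglycerate (-0.12), and 7 above, including Pgm1 (0.19). None of 12 other transport genes passed. Slc16a8, the lactate transporter of the RPE and one of the RPE markers above, had a log2 fold change of 0.55 (SE 0.26). Txnip, an inhibitor of glucose uptake, had -0.25, and Slc16a6 had 0.06. Pgm2 and Slc16a8 are also in the study's own list of changed genes, which was drawn from these same libraries and is not independent evidence.

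Of 12 other genes of pyruvate handling, 8 had a fold change below 0 and none passed the limits. Dlat and Dld, further subunits of the pyruvate dehydrogenase complex, were higher in all 3 EFV libraries than in all 3 controls. By log2 CPM, 3.95% of all genes tested were higher in this way. Pdhx, also a subunit of the complex, had a log2 fold change of -0.05 and overlapping groups. Dlat, the transacetylase, was at 13.8, 14.5 and 15.04 FPKM in controls and at 15.9, 15.6 and 15.6 FPKM after EFV (0.10, unadjusted p = 0.0566, edgeR). Dld, the dehydrogenase that restores the lipoyl group, was at 41.9, 42.6 and 40.9 FPKM in controls and at 45.7, 45.1 and 44.4 FPKM after EFV (0.09, unadjusted p = 0.0511, edgeR). Pck2, the mitochondrial phosphoenolpyruvate carboxykinase, had 0.10. The 8 genes of the pentose phosphate pathway, which branches off at glucose 6-phosphate, split into 3 below and 5 above 0 with none past the limits, and H6pd (0.19), Pgls (-0.10) and Tkt (-0.08) had the smallest p-values.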

How the data were processed

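Poly-A RNA was sequenced from 6 pooled retina libraries, 3 control and 3 EFV. The deposited expected counts and the FPKM values were made by the authors' provider with RSEM 1.2.12, per the labels on mm10 with Bowtie2 2.2.5, and HISAT2 2.0.4 is also listed with no role given. RSEM divides reads shared by similar transcripts: expected counts were fractional in at least 5 libraries for 9 of the 35 genes, Gapdh, Pgam1, Pkm, Gpi1, Eno1 and Eno1b among them, and whole in all 6 for 24. Expected counts were rounded, a gene was kept when 3 or more libraries held 10 or more counts of it (15537 genes, all 35 included), and groups were compared with edgeR 4.0.16 (TMM, quasi-likelihood, two-sided, Benjamini-Hochberg over all genes tested) in R 4.3.3. FPKM was used for levels, which compare genes per length, and for isozyme shares (exact permutation, scipy 1.17.1). The biological coefficient of variation was 0.0983. Scaling, filters, DESeq2 1.42.0, limma 3.58.1 on log2(FPKM + 0.1) and log2(FPKM + 1), a Poisson model, a replicate block, marker covariates and leaving out each library were tried.

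Values per library were given for genes with an unadjusted p of 0.05 or less, the most abundant gene of each step, Eno1b and Pgam2, and up to 3 genes per other list were named by p; the values of further genes were added after they had been seen. The genes and lists were chosen with earlier results of these data known. Of the 35 genes, Aldoa, Eno1, Gpi1, Pfkfb2, Pfkfb3, Pfkl and Pkm are in the study's own list of changed genes from these libraries, which is not independent evidence. Scripts were tested on simulated data. Promoters and positions are from RefSeq (GRCm38.p6); 4 genes (Slc2a3, Slc16a7, Bsg and Eno1b) had no promoter entry.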

Additional observations from a re-analysis of the deposited data

How the results depend on the processing

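With 3 libraries a group, p-values rest on few pools, and Pgam2, Eno1b and Gapdh had the largest SEs of the 35 genes (0.32, 0.28 and 0.15). Pgam2 had few reads. Eno1b and Gapdh share 85.2% and 58.4% of their 50-base windows with other genes. Pgk1 shares 68.0%, and its SE was 0.06. Of the 35 genes, 20 kept the direction of their fold change under all 19 alternatives and 15 turned in at least 1. In all that follows the cause was not tested. The number of the 35 genes lower past the limits, 4 as reported, was 2 with upper quartile scaling, 2 with total counts only, 2 with limma at either pseudocount, 2 with the RPE covariate, 7 with the lens covariate and 7 with the Poisson model. The number higher past the limits, 0 as reported, was 1 with upper quartile scaling, total counts only, DESeq2, limma at either pseudocount and the rod covariate, and 2 with the Poisson model, which alone gave adjusted calls (20 of the 35 genes). Over the left-out libraries these numbers ranged from 1 to 6 lower and from 0 to 2 higher, and adjusted calls stayed at 0. Without control 3 the number lower was 6. The number of the 35 genes with a fold change below 0 was 22 to 28 over the left-out libraries.

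The summed Eno1 and Eno1b lost its unadjusted p of 0.05 or less or its size with total counts only (-0.094), limma at either pseudocount (-0.092), the lens covariate (-0.093) and the RPE covariate (-0.11), and ranged from -0.14 to -0.090 over the left-out libraries, passing only without control 1 or EFV 3. Isozyme shares with groups that did not overlap numbered 3 to 9 over the left-out libraries, with 9 without control 3, 6 without EFV 2 and 5 without control 1, and 3 from expected counts. Leaving out a library cannot make separated groups overlap, so this number could not fall below 3. Smaller groups also separate more easily, so its rise says nothing about EFV.

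Log2 fold changes that turned sign were, with upper quartile scaling, Ldhb 0.0018. With total counts only they were Slc2a3 0.0092, Ldhb 0.014. With limma at the lower pseudocount they were Slc2a3 0.013, Ldhb 0.016, Pdk2 0.0016, and at the higher Slc2a3 0.013, Ldhb 0.016, Pdk2 0.0016. With the lens covariate they were Slc16a1 0.0089, Slc16a7 -0.0056, Aldoc -0.0010, Pdk2 0.034. With the RPE covariate they were Hk1 0.00021, Pfkm -0.057, Aldoc -0.074, Gapdh -0.066, Pgam2 -0.0013, Eno1b -0.26, Mpc2 -0.12, Pdk3 0.057. With the rod covariate they were Aldoc -0.020, Gapdh -0.019, Pgam2 -0.026. Over the left-out libraries, log2 fold changes turned within the ranges Slc2a3 (-0.054 to 0.053), Gapdh (-0.13 to 0.17), Pgam2 (-0.24 to 0.30), Eno2 (-0.073 to 0.019), Ldhb (-0.055 to 0.069), Pfkfb4 (-0.071 to 0.026), Pfkm (-0.025 to 0.052), Aldoc (-0.063 to 0.051), Eno1b (-0.081 to 0.64), Mpc2 (-0.055 to 0.12), Slc16a1 (-0.10 to 0.014), Slc16a7 (-0.019 to 0.087), Pdk2 (-0.067 to 0.031), Pdk3 (-0.091 to 0.013). Differences in isozyme share (EFV minus control, percentage points) turned for Pdk1 (-0.88 to 0.25), Mpc1 (-0.90 to 2.14), Slc16a1 (-0.33 to 3.44), Slc16a3 (-3.48 to 0.21), Pgam1 (-0.11 to 0.040), Pdk2 (-0.33 to 1.97).

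With the replicate number as a block, 6 genes were lower and 0 higher past the limits, 23 of the 35 had a fold change below 0, the summed enolases were at -0.11 and Ldhb turned to 0.00018. The SE of Gapdh, whose level rose with the replicate number in both groups, went from 0.15 to 0.044 with this block. Deviations from the group means correlated at 0.125, 0.0832 and 0.0992 between libraries of the same number, and each library correlated best with its own number, which is a hint from the data only, so the numbers were not taken as pairs.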
